A study of Mus musculus with 12 samples.

Results

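The 10 mouse genes examined encode the calcium/calmodulin-dependent protein kinases: the 4 CaMKII subunit genes Camk2a, Camk2b, Camk2d and Camk2g, the nuclear kinase gene Camk4, the CaMKI genes Camk1, Camk1d and Camk1g, and Camkk1 and Camkk2, which encode the upstream kinases of CaMKI and CaMKIV. Accessible regions were the merged ATAC-seq peaks of all 12 libraries, and a region was counted to a kinase gene when it lay in the gene body or within 10 kb upstream of an annotated start site. By this rule 271 of 263785 regions belonged to the 10 genes. Of these, 35 were promoter regions (within 1 kb of a start site), 15 lay in exons, 202 in introns and 19 further upstream.

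The libraries came from primary cortical neurons of wild-type C57BL/6 mouse embryos at embryonic day 18. Cultures received PBS (the control) or PFF, fibrils assembled in advance from human α-synuclein, over 7 days. Further PFF cultures, written here as PFF+MLi-2 and PFF+Rab5 ASO, also received the LRRK2 kinase inhibitor MLi-2 for the last 5 days or antisense oligonucleotides against Rab5, a GTPase of early endosomes, for the last 3 days. There were 3 biological replicates per group, described by the study as independent experiments, and all carry the label batch 1. No group is labelled as receiving a non-targeting oligonucleotide, so effects of any oligonucleotide cannot be told apart from those of the Rab5 sequences. For the inhibitor the study's methods describe control cultures given its solvent, DMSO, and the labels do not say which of these libraries received it. In bulk chromatin of this kind, a change in accessibility per cell and a change in the share of cells that are open at a site also cannot be told apart.

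Calcium entering a neuron through NMDA receptors or voltage-gated channels binds calmodulin, and calcium-loaded calmodulin releases these kinases from self-inhibition. CaMKII is a large holoenzyme whose α and β subunits are abundant in forebrain neurons and are central to synaptic plasticity, while δ and γ subunits are expressed more widely. CaMKK phosphorylates CaMKI and CaMKIV to raise their activity, and CaMKIV in the nucleus acts on the transcription factor CREB.

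Each library held between 137417 and 184717 peaks. The labelled cell type was checked against marker genes: all 6 neuronal markers (Rbfox3, Map2, Tubb3, Syn1, Snap25 and Dlg4) had a promoter region called in all 12 libraries, as did 5 of 5 excitatory, 4 of 4 inhibitory, 3 of 4 astrocyte, 3 of 5 oligodendrocyte lineage, 1 of 3 endothelial and 0 of 4 microglial markers. Among the markers of other cells, Gfap, Aldh1l1 and Slc1a3 (astrocytes), Mbp, Olig1 and Olig2 (oligodendrocyte lineage) and Kdr (endothelium) were thus called in all 12 libraries, and Mog, Pecam1 and the microglial genes Cx3cr1 and Aif1 had no promoter region in any. The remaining ones were called in part of the libraries, up to 10 for Aqp4, 9 for Sox10, 7 for Csf1r, 3 for P2ry12 and 1 for Cldn5. Of the 12 astrocyte promoter regions, 7 to 8 were called in the PBS libraries, 8 to 10 with PFF, 8 to 10 with PFF+MLi-2 and 5 to 7 with PFF+Rab5 ASO. Of the 11 promoter regions of the oligodendrocyte lineage, 6 to 7, 7 to 10, 5 to 7 and 4 to 6 were called in the same order. The relative depth of a library, derived from the background in its peak list and scaled to a mean of 1, averaged 0.939 ± 0.0330 (SD, n = 3) for PBS, 0.843 ± 0.0723 for PFF, 1.00 ± 0.0396 under MLi-2 and 1.22 ± 0.147 under Rab5 ASO. The part of depth and of glial cells in the differences below was not tested.

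The height of a peak is given as a percentile, the rank of its fold enrichment over local background among all peaks of the same library, where 100 is the highest. Of the 271 kinase gene regions, 78 (28.8%) were called in all 12 libraries, against 72465 (27.5%) of all regions, and 71 (26.2%) were called in 1 library, against 26.6% of all regions. Their median width was 157 bp against 149 bp. A median of the mean percentile of 33.0 for kinase gene regions compares with 35.3 for all regions. The number of kinase gene regions called was 150, 115 and 136 in the PBS replicates, 156, 148 and 140 with PFF, 142, 129 and 135 with PFF+MLi-2 and 155, 145 and 135 with PFF+Rab5 ASO. These ranges overlapped between all groups.

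Every kinase gene had a promoter region called in all 12 libraries. The highest-ranked promoter region of each gene, called its leading promoter here, had a mean percentile over the 12 libraries of 89.5 ± 2.55 (SD, n = 12) for Camk2d, 86.8 ± 3.98 for Camk1g, 86.7 ± 3.87 for Camk4, 85.5 ± 5.05 for Camk1d, 83.6 ± 3.90 for Camkk2, 83.3 ± 2.98 for Camkk1, 83.1 ± 3.30 for Camk1, 79.8 ± 2.62 for Camk2b and 79.7 ± 5.34 for Camk2g. Camk2a stood lowest at 69.4 ± 7.49. In percentile the gap between Camk2g and Camk2a exceeded the SD of either gene, whereas Camk1g and Camk4, or Camkk2, Camkk1 and Camk1, or Camk2b and Camk2g, differed by less than their SDs. This order is one of fold over local background. In fragments stacked at the summit, Camk2a had 47 to 65 over the 12 libraries, against 33 to 47 for Camk4, 31 to 40 for Camk1 and 64 to 79 for Camkk1. The leading promoters of Camk2g, Camk4, Camkk1 and Camkk2 also lay within 1 kb of start sites of other annotated genes (Gm30108, 2310026I22Rik, 4732414G09Rik and Gm43684), and accessibility there cannot be assigned to either gene.

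**Figure D1:**
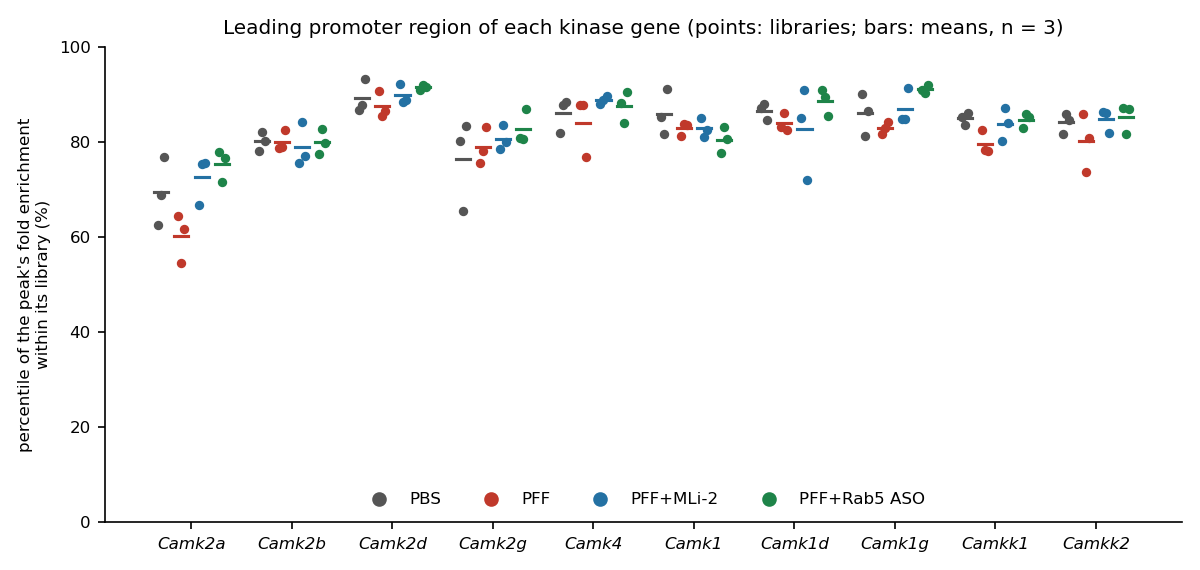
Percentile of the leading promoter region of each kinase gene in every library (y axis, percent; points are libraries, bars are means, n = 3, colours are the 4 groups). The points of Camk2a run from 54.6 to 77.9, lie wholly below those of Camk2d, Camk1g and Camkk1 and overlap those of the other 6 genes.

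Changes in height were tested for regions with a peak in all 12 libraries. Within each library these 72465 regions were put in order of fold enrichment and their ranks converted to normal scores, so that a difference in height rank is in SD units of that score. Counts of regions whose groups do not overlap are read on the same score. Differences were tested with limma with Benjamini-Hochberg adjustment over all 72465 regions, and 78 kinase gene regions took part. A region present in 3 of 3 libraries of one group and in 0 of 3 of its comparison group was counted as gained in the former or, where the comparison group alone had it, as lost, which is a count without a test because 3 libraries against 3 cannot give an exact p under 0.1.

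In PFF vs PBS, which asks what the fibrils change, limma called 0 of the 78 kinase gene regions higher (0% of all regions) and 0 lower (0% of all regions), with a smallest adjusted p of 0.232. At an unadjusted p under 0.05, 4 of 78 (5.13%) passed, against 9.72% of all regions. The PFF and PBS values did not overlap at 6 of the 78 regions (7.69%, against 15.1% of all regions). PFF was higher at 2 of them (2.56%, against 7.07%) and lower at 4 (5.13%, where 5794 of the 72465 regions were lower). Their median difference was -0.10, with -0.02 for all regions. Of 218 kinase gene regions with a peak in either group, 4 (1.83%) were gained, against 1.10% of all regions, and 0 were lost, against 0.405%. The 4 gained regions were 2 Camk2b introns, 1 Camk2d intron and 1 Camk1d intron.

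In PFF+MLi-2 vs PFF, which asks what LRRK2 inhibition changes in the presence of fibrils, limma called 0 of 78 regions higher and 0 lower (0% of all regions in both directions), with a smallest adjusted p of 0.266, and 6 passed an unadjusted p of 0.05 (7.69%, against 11.4% of all regions). The groups did not overlap at 14 of 78 regions (17.9%, against 17.7% of all regions), of which 11 (14.1%) were higher, against 10.1%, and 3 (3.85%) were lower, against 7.55%. The median difference was 0.12, with 0.01 for all regions. Beside these counts, the relative depth was 0.957 to 1.03 with PFF+MLi-2 and 0.775 to 0.919 with PFF, and the summed percentile of the astrocyte promoter regions was 367 to 428 and 299.8 to 366, both without overlap. Among 211 kinase gene regions with a peak, 2 (0.948%) were gained, against 0.374% of all regions, and 6 (2.84%) were lost, against 1.64%. With equally many top peaks taken from each library 1 of 193 was gained (against 0.712%) and 0 were lost (against 1.07%). With a −log10 q-value of at least 5, 1 of 167 was gained (against 0.407%) and 0 were lost (against 1.83%).

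In PFF+Rab5 ASO vs PFF, which asks the same of the Rab5 oligonucleotides, limma called 2 of 78 kinase gene regions higher, against 1.97% of all regions, and 0 lower, against 1.86%. The 2 were a region upstream of Camk2b and an intron of Camk1g. The 2772 calls over all regions became 0 to 995 with 1 library left out, 0 of them without PFF+Rab5 ASO replicate 1, so that these shares depend on single libraries. At an unadjusted p under 0.05, 14 regions passed (17.9%, against 21.1%). The groups did not overlap at 18 of 78 regions (23.1%, against 25.9% of all regions), of which 15 (19.2%) were higher, against 13.5%, and 3 (3.85%) were lower, against 12.4%. The median difference was 0.11, with 0.01 for all regions. Among 241 kinase gene regions with a peak, 3 (1.24%) were gained, against 2.64% of all regions, and 10 (4.15%) were lost, against 1.94%. With equally many top peaks taken from each library 3 of 196 were gained (against 2.51%) and 8 were lost (against 2.44%). With a −log10 q-value of at least 5, 4 of 173 were gained (against 2.39%) and 3 were lost (against 2.31%). Beside these counts, the relative depth of the PFF+Rab5 ASO libraries was above that of the PFF libraries in the mean (1.22 against 0.843). The summed percentile of the astrocyte promoter regions ran from 273 to 339 with PFF+Rab5 ASO and from 299.8 to 366 with PFF, and that of the oligodendrocyte lineage from 247 to 253 and from 279 to 352.

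The treated PFF cultures were also set against PBS, with the same PBS libraries in both comparisons and as the control of PFF. In PFF+MLi-2 vs PBS, limma called 0 of 78 kinase gene regions higher or lower (0% of all regions in both directions), with a smallest adjusted p of 0.844, and 2 passed an unadjusted p of 0.05 (against 5.77% of all regions). The groups did not overlap at 4 of 78 (5.13%, against 10.3%), with 2 higher and 2 lower (against 5.21% and 5.12%), 2 regions were gained (0.957%, against 0.225%) and 0 were lost (against 0.577%). In PFF+Rab5 ASO vs PBS, limma called 0 of 78 higher (against 1.00%) and 0 lower (against 0.631%), with a smallest adjusted p of 0.0634, and 5 passed an unadjusted p of 0.05 (against 18.7%). The 1184 calls over all regions became 0 with the replicate number as a block and 0 to 35 with 1 library left out, so that the shares of 1.00% and 0.631% are no firm background. The groups did not overlap at 12 of 78 (15.4%, against 23.0%), with 9 higher (11.5%, against 11.4%) and 3 lower (3.85%, against 11.6%), 2 were gained (0.847%, against 2.59%) and 3 were lost (1.27%, against 0.991%). Beside these counts, the relative depth was 1.05 to 1.31 with PFF+Rab5 ASO and 0.912 to 0.976 in PBS, and the summed percentile of the promoter regions of the oligodendrocyte lineage was 247 to 253 and 255.0 to 289, both without overlap.

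**Figure D2:**
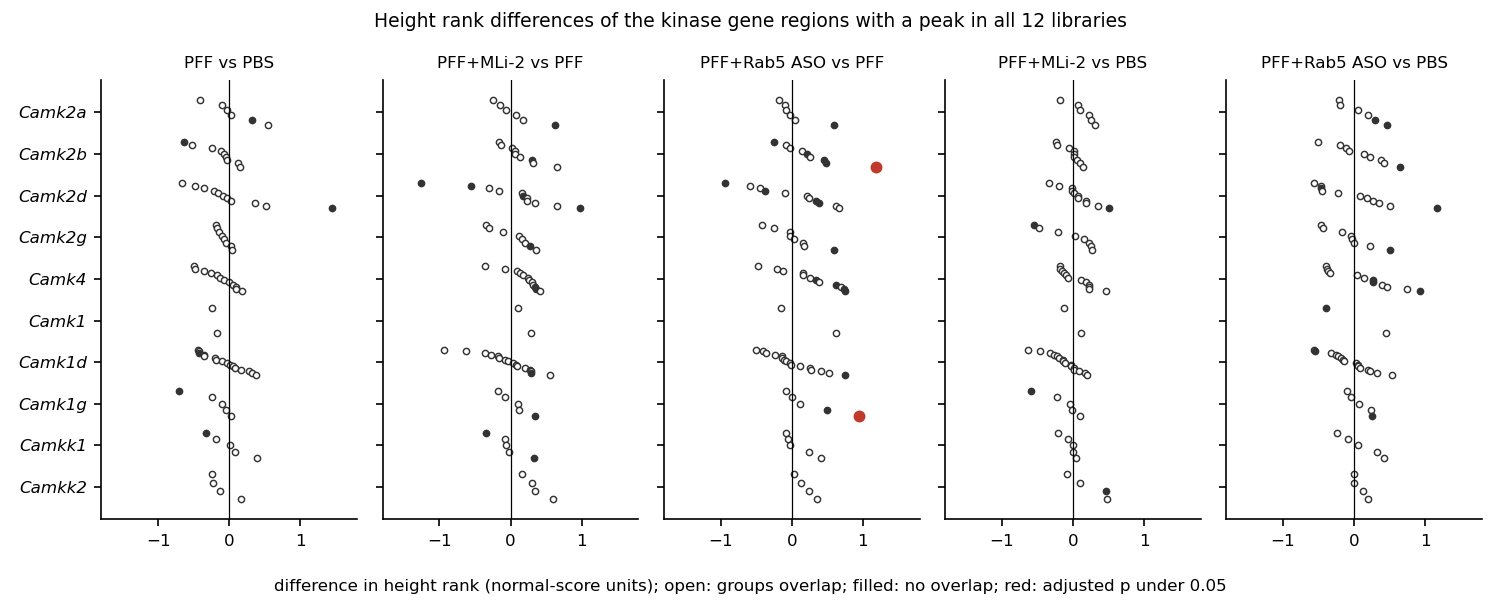
Difference in height rank (x axis, normal-score units) for each of the 78 kinase gene regions with a peak in all 12 libraries, by gene and by comparison (filled points: the 2 groups of 3 libraries do not overlap; red: limma adjusted p under 0.05). The red points are the Camk2b upstream region at 1.18 and the Camk1g intron at 0.95 in PFF+Rab5 ASO vs PFF.

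The 10 genes had 17 promoter regions called in all 12 libraries, and they are set beside the 21036 such promoter regions of any gene. In PFF vs PBS 6 of the 17 had a difference above 0, with a median of -0.12, against 37.4% and a median of -0.07 for any gene. In PFF+MLi-2 vs PFF it was 14 of 17 with a median of 0.17, against 62.5% and 0.08, and in PFF+Rab5 ASO vs PFF 11 of 17 with a median of 0.17, against 59.2% and 0.06. The share of kinase promoters above 0 was thus near that of any gene with PFF. The 10 leading promoters are set beside the leading promoters of protein-coding genes, 12503 regions chosen in the same way. In PFF vs PBS they ran from -0.41 to 0.04 with a median of -0.21, and 1 of 10 was above 0, against 33.5% and a median of -0.08. In PFF+MLi-2 vs PFF all 10 were above 0, from 0.07 to 0.63 with a median of 0.28, against 67.2% and 0.10. In PFF+Rab5 ASO vs PFF 8 of 10 were above 0, from -0.15 to 0.60 with a median of 0.24, against 61.4% and 0.07. None of the 10 passed the limma test in these comparisons, where the smallest adjusted p was 0.645, 0.339 and 0.125. The 3 comparisons share the PFF libraries, so that low values in PFF enter all of them. Against PBS, 7 of 10 leading promoters were above 0 with either treatment, with medians of 0.09 and 0.06, against 53.4% and 47.2% of the leading promoters of any protein-coding gene (medians 0.01 and -0.02), and with smallest limma adjusted p of 0.962 and 0.405.

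Camkk1 and Camkk2 encode the kinases at the head of the cascade, which phosphorylate and activate CaMKI and CaMKIV. Camkk1 (chromosome 11, 73019008 to 73042073, plus strand, GRCm38) had 10 regions, of which 5 were called in every library, and Camkk2 (chromosome 5, 122731170 to 122779409, minus strand) had 11, of which 4 were. Neither gene had a region gained or lost in any of the 5 comparisons. The highest-ranked region of any kinase gene was a Camkk1 exon (chr11:73030749-73031326), with a percentile of 97.5, 96.2 and 98.6 in PBS, 98.5, 97.7 and 97.8 with PFF, 98.2, 96.2 and 97.6 with PFF+MLi-2 and 97.2, 97.3 and 99.0 with PFF+Rab5 ASO. All 4 groups overlapped there. The leading promoter of Camkk1 had a percentile of 85.2, 83.6 and 86.2 in PBS and of 82.5, 78.4 and 78.1 with PFF. It was lower in every PFF library than in every PBS library, but the difference of -0.33 (SE 0.201) did not pass the limma test (adjusted p = 0.645). For the Camkk2 promoter the PBS values of 81.8, 86.0 and 84.7 overlapped the PFF values of 85.9, 73.7 and 80.9.

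Camk2b encodes the β subunit of CaMKII, which binds actin and anchors the holoenzyme in dendritic spines. The gene lies on chromosome 11 from 5969644 to 6066362, on the minus strand, and had 28 regions, 9 of them called in all 12 libraries. The number of Camk2b regions called was 13, 13 and 15 in PBS (13.7 ± 1.15, SD, n = 3), 16, 20 and 20 with PFF (18.7 ± 2.31), 16, 13 and 15 with PFF+MLi-2 (14.7 ± 1.53) and 16, 12 and 15 with PFF+Rab5 ASO (14.3 ± 2.08). Every PFF library thus held more Camk2b regions than any PBS library, and the counts of PFF and both treated groups met at 16. This was 1 of the 10 kinase genes, and of 12088 protein-coding genes with at least 4 regions (the fewest of a kinase gene) 4.50% had more regions in every PFF library than in any PBS library. Of 2042 genes with at least 20 regions it was 5.00%, and 1 of 5 kinase genes of that size. No kinase gene had fewer in every PFF library. The PFF libraries had the lowest mean relative depth of the 4 groups, and the additional regions were low: Camk2b regions called with PFF but in 0 PBS libraries had percentiles of 0.111 to 12.9. Camk2b regions that differed by group are shown next, read from the RefSeq GRCm38.p6 genome on the strand of the gene (5′ to 3′), with the 21 bases centred on the median summit in capitals. The summits of single libraries were spread over 98, 48 and 14 bp in the order shown, so that some lie outside the capitals. They are the upstream region chr11:6068617-6068851, called higher with PFF+Rab5 ASO, and the introns chr11:6017108-6017242 and chr11:6029041-6029142, gained with PFF.
Camk2b upstream, 6068617: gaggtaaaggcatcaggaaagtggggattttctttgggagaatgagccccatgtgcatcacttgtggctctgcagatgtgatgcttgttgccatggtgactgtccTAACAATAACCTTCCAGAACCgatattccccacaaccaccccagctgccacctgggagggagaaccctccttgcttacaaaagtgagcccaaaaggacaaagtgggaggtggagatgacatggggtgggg
Camk2b intron, 6017108: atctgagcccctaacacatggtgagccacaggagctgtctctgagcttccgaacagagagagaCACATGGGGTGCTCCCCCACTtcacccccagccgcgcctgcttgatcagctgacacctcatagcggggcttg
Camk2b intron, 6029041: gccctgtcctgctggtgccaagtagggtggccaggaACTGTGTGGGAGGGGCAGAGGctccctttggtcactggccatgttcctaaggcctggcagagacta

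The Camk2b upstream region was centred at -2372 bp from the 5′-most start site, outside the gene body. Its percentile was 3.20, 14.4 and 24.8 in PBS, 4.84, 7.51 and 1.27 with PFF, 6.06, 5.92 and 6.60 with PFF+MLi-2 and 32.3, 42.5 and 35.5 with PFF+Rab5 ASO. All 3 PFF+Rab5 ASO values exceeded all 9 others. The summit pileup, the number of fragments stacked at the summit, was 31, 33 and 25 with PFF and 41, 38 and 38 with PFF+Rab5 ASO, over a local background of 8.20, 8.20 and 7.35 against 8.97, 7.35 and 7.87 fragments. The height rank rose by 1.18 (SE 0.224) from PFF to PFF+Rab5 ASO (limma, adjusted p = 0.0269). Against PBS the same libraries were higher by 0.65 (SE 0.285) without overlap, and limma did not call that difference (adjusted p = 0.251). It was 0.34 to 0.86 with 1 library left out, lowest without PBS replicate 1. PFF vs PBS gave -0.53 (limma, adjusted p = 0.611) and PFF+MLi-2 vs PFF gave 0.30 (limma, adjusted p = 0.623). When 1 library was left out at a time the difference stayed between 1.02 and 1.31, with adjusted p between 0.0460 and 0.0828, and 1 of the 6 fits passed. Ranking by summit pileup in place of fold enrichment gave 0.54 with an adjusted p of 0.0773, and 0.42 against PBS (adjusted p = 0.246).

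The first PFF-gained Camk2b intron, at 6017108, had a percentile of 5.66, 12.2 and 4.39 in the PFF replicates and no peak in PBS. With PFF+MLi-2 it was called in replicates 1 and 3 (11.4 and 9.35), and with PFF+Rab5 ASO in replicate 3 (1.75). The second, at 6029041, had a percentile of 1.13, 12.9 and 2.65 with PFF, no peak in PBS, a peak in PFF+MLi-2 replicate 1 (9.33) and no peak with PFF+Rab5 ASO. By this percentile both stood among the lowest peaks of the libraries that had them. The percentile ranks fold enrichment and not the p-value or q-value. With equally many top peaks taken from each library the first was left in 3 PFF libraries and the second in 2, and with a −log10 q-value of at least 5 in 3 and 1. An exon region at 6015205 had a percentile of 4.56 and 1.54 in PBS replicates 1 and 3, up to 7.82 in all 3 PFF libraries, 2.06 in PFF+MLi-2 replicate 1 and no peak with PFF+Rab5 ASO.

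The main Camk2b promoters overlapped between PFF and PBS. The promoter at the 5′-most start site (6065504 to 6066144) had a percentile of 62.6, 60.7 and 68.7 in PBS and of 63.9, 64.0 and 59.4 with PFF. The leading promoter at an internal start site (6000258 to 6001050) had 78.2, 82.2 and 80.2 in PBS and 78.7, 79.0 and 82.5 with PFF, a difference of -0.05 (SE 0.222). The PFF values of both promoters overlapped those of PBS. The highest Camk2b region, centred at -9503 bp from the start (6075582 to 6076149), had a mean percentile of 84.6 over the 12 libraries, and the intron at 6030597 had 83.4. One intron, at 5996099, went the other way from the gained regions, with a percentile of 36.0, 34.8 and 23.0 in PBS and of 9.76, 12.6 and 11.0 with PFF. All 3 PFF values were below those of PBS, and the difference of -0.64 (SE 0.213) did not pass the limma test (adjusted p = 0.371). Ranked by summit pileup it was -0.34 (adjusted p = 0.395).

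**Figure D3:**
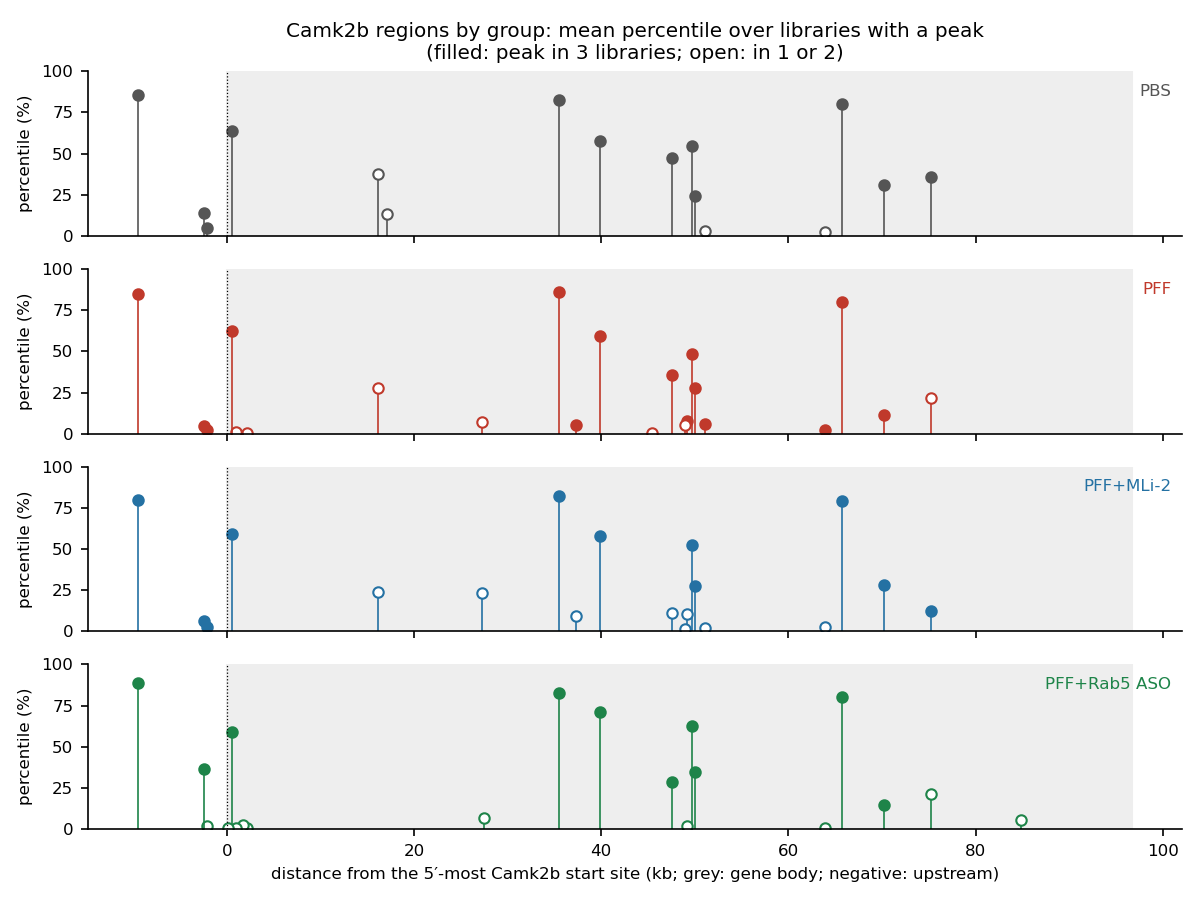
Mean percentile of the Camk2b regions in each group (y axis, percent) along the gene (x axis, kb from the 5′-most start site; filled: peak in 3 libraries, open: in 1 or 2; grey: gene body). The tall regions recur in all 4 groups, the PFF panel has more low regions, and the region centred at -2372 bp stands higher with PFF+Rab5 ASO.

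**Figure D4:**
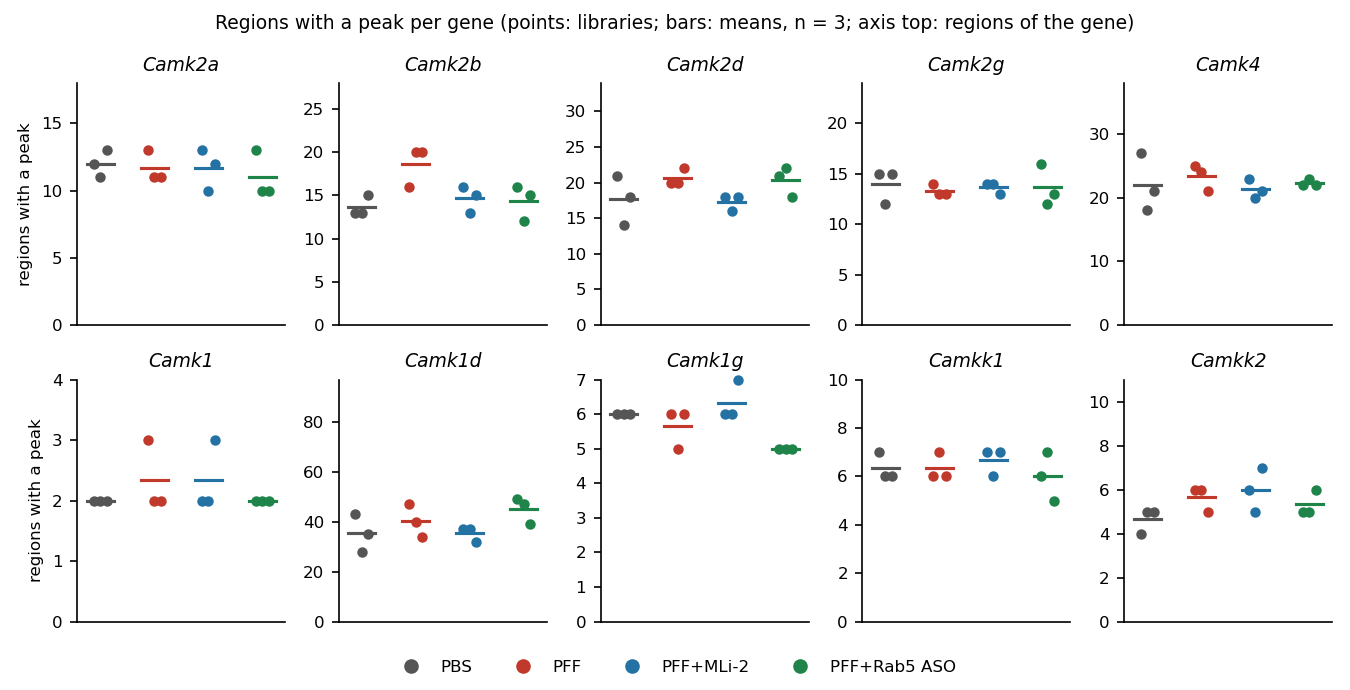
Number of regions with a peak in each library for each kinase gene (y axis, regions; points are libraries, bars are means, n = 3). The PFF points of Camk2b (16, 20 and 20) lie above its PBS points (13, 13 and 15), and the PFF and PBS points meet or overlap in the other panels.

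Camk2d encodes the δ subunit of CaMKII. The gene spans chromosome 3 from 126596302 to 126846326 on the plus strand, with 34 regions, 11 of them in all 12 libraries. The largest difference of any kinase gene region in PFF vs PBS was in a Camk2d intron (chr3:126737150-126737411), which lies within 1 kb of a start site of the annotated gene Gm42515. Another intron, chr3:126710341-126710512, was gained with PFF. Both sequences are given on the plus strand of GRCm38 (RefSeq), again with the 21 bases at the median summit in capitals and with summits of single libraries spread over 90 and 66 bp.
Camk2d intron, 126737150: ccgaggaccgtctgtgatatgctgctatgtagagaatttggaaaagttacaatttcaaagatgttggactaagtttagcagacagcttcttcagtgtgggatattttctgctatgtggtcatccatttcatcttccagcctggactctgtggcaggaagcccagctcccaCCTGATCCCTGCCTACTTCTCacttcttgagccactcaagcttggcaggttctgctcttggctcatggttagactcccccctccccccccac
Camk2d intron, 126710341: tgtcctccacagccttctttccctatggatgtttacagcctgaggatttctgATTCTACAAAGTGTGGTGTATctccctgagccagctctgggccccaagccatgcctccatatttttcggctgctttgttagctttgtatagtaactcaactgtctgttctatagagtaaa

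The percentile of the Camk2d intron near Gm42515 was 29.3, 40.5 and 17.7 in PBS, 86.3, 62.1 and 72.2 with PFF, 30.2, 16.8 and 49.8 with PFF+MLi-2 and 54.9, 39.3 and 50.4 with PFF+Rab5 ASO. The 3 PFF libraries were above all other libraries. Its summit pileup was 11, 12 and 10 fragments in PBS and 23, 15 and 17 with PFF. The difference was 1.45 (SE 0.316) in PFF vs PBS (limma, adjusted p = 0.232), -1.26 (SE 0.337) in PFF+MLi-2 vs PFF (limma, adjusted p = 0.266) and -0.94 (SE 0.286) in PFF+Rab5 ASO vs PFF (limma, adjusted p = 0.0981), so none of them passed the test. The comparisons share the PFF libraries. At these low pileups 1 fragment moves a peak far: in PBS replicate 1, a summit of 11 fragments over a background of 1.72 stood at percentile 29.3 and one of 12 at 39.7.

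The Camk2d intron at 126710341 had a percentile of 30.0, 32.2 and 33.6 with PFF, from 11 fragments in each replicate, and was otherwise called in PFF+Rab5 ASO replicate 2 (6.62, from 9 fragments). It was gained in PFF vs PBS and lost in PFF+MLi-2 vs PFF, and it was left in 2 PFF libraries with equally many top peaks and in 0 with a −log10 q-value of at least 5. A neighbouring intron at 126705613 was called in 2 PBS, 3 PFF and 2 PFF+MLi-2 libraries and in 0 of 3 with PFF+Rab5 ASO. Other introns differed between groups without passing the test of their own pair. At 126639076 the percentile was 60.4, 62.0 and 62.8 in PBS and 94.0, 77.0 and 89.7 with PFF+Rab5 ASO, a difference of 1.17 (SE 0.283; limma, adjusted p = 0.0634), which passed when all 12 libraries were fitted together (limma, adjusted p = 0.0491). At 126656311 the values with PFF+MLi-2 (82.6, 83.5 and 86.8) were above those with PFF (70.2, 50.0 and 74.4) and in PBS (75.4, 72.9 and 77.9), with a difference from PFF of 0.98 (SE 0.274; limma, adjusted p = 0.278). The highest Camk2d region, an intron at 126695377, had a mean percentile of 95.5.

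Camk2g encodes the γ subunit of CaMKII, one form of which carries calmodulin to the nucleus. The gene lies on chromosome 14 from 20734875 to 20794088 on the minus strand, with 24 regions, 8 of them in every library. An upstream region at 20798885, centred at -4859 bp from the start, was called in all PBS libraries (9.90, 25.2 and 5.49) and all PFF libraries (7.46, 4.20 and 15.3), in PFF+MLi-2 replicate 1 (6.46) and in 0 of 3 PFF+Rab5 ASO libraries. It was lost with PFF+Rab5 ASO against both PFF and PBS. Nearer the start, a region at 20795571 was called in all PFF+MLi-2 libraries (0.650, 4.12 and 1.55), in PBS replicate 3 (9.39) and in no other library. An intron at 20767061 was called in all PFF+Rab5 ASO libraries (15.1, 9.62 and 35.5) and in PBS replicate 1 (13.4). All 3 ranked below the leading promoter of the gene, which had 80.2, 65.6 and 83.3 in PBS and 75.6, 78.2 and 83.2 with PFF. The intron at 20748437 had lower percentiles with PFF+MLi-2 (58.1, 54.0 and 44.8) than in PBS (72.1, 67.8 and 69.9), a difference of -0.54 (SE 0.208; limma, adjusted p = 0.844).

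Camk2a, which encodes the α subunit of CaMKII, lies on chromosome 18 from 60925618 to 60988152 on the plus strand and had 18 regions, 6 of them in all 12 libraries. Its leading promoter had a percentile of 62.6, 68.8 and 76.9 in PBS, 64.4, 54.6 and 61.8 with PFF, 66.7, 75.3 and 75.7 with PFF+MLi-2 and 77.9, 71.6 and 76.6 with PFF+Rab5 ASO. PFF overlapped PBS and lay below both treated groups. The differences were -0.41 (SE 0.260; limma, adjusted p = 0.658) for PFF vs PBS, 0.63 (SE 0.210; limma, adjusted p = 0.339) for PFF+MLi-2 vs PFF and 0.60 (SE 0.202; limma, adjusted p = 0.125) for PFF+Rab5 ASO vs PFF. The PFF+MLi-2 difference was 0.33 when ranked by −log10 q-value and 0.17 when ranked by summit pileup. A region at an internal start site (60963386) was called in PBS replicates 2 and 3 (at 26.4 in the latter), all PFF libraries (37.2, 13.6 and 60.9), none with PFF+MLi-2 and PFF+Rab5 ASO replicate 1 (6.32). An intron at 60952968, near the microRNA gene Mir7220, was called in all PFF+Rab5 ASO libraries (58.0, 44.4 and 45.3) and in PBS replicate 1 (22.0). The highest Camk2a region, an intron at 60978258, had a mean percentile of 95.0.

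Camk4 encodes CaMKIV, the member that acts on CREB in the nucleus. The gene is on chromosome 18 from 32934931 to 33191228, plus strand, with 38 regions, 12 of them in all 12 libraries, and it held 6 of the 23 kinase gene regions that were gained or lost in any comparison. One of the losses was an intron at 33104817, with a percentile of 48.0, 17.9 and 62.8 in PBS, 70.2, 56.6 and 33.6 with PFF, 48.0, 55.4 and 71.3 with PFF+MLi-2 and no peak in any PFF+Rab5 ASO library. It was called in all 9 libraries of the other groups, from 10 to 18 fragments. The intron at 32990456 was called in 2 PBS, 3 PFF and 3 PFF+MLi-2 libraries and in 0 with PFF+Rab5 ASO. At 32968506 and 33076289 all 3 PFF libraries had a peak, as did 2 and 1 PBS libraries, and neither treated group had any. Others were gained, at 33066714 with PFF+MLi-2 (34.6, 12.9 and 8.88) against both PFF and PBS, and at 33064195 with PFF+Rab5 ASO (56.9, 22.2 and 16.6) against PBS.

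A pair of neighbouring intronic regions of Camk4 was higher with PFF+Rab5 ASO without passing the test, the first against PBS and the second against PFF. At 33166637 the percentile was 57.0, 34.0 and 52.0 in PBS and 70.7, 71.9 and 81.0 with PFF+Rab5 ASO, a difference of 0.93 (SE 0.239; limma, adjusted p = 0.0729). At 33165989 it was 67.4, 68.5 and 55.7 with PFF and 83.4, 83.7 and 75.1 with PFF+Rab5 ASO, a difference of 0.74 (SE 0.204; limma, adjusted p = 0.0756). The PFF+Rab5 ASO values did not overlap the other group in either case. The leading promoter of Camk4 had 82.0, 87.9 and 88.4 in PBS and 87.7, 87.8 and 76.8 with PFF.

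Camk1 encodes CaMKIα. It is the shortest of the 10 genes (chromosome 6, 113334124 to 113343984, minus strand) and had 4 regions, of which its promoter and 1 intron were called in all 12 libraries. The promoter percentile was 85.3, 81.6 and 91.1 in PBS, 81.2, 83.9 and 83.5 with PFF, 85.1, 81.0 and 82.6 with PFF+MLi-2 and 77.7, 83.2 and 80.6 with PFF+Rab5 ASO. The percentiles of the groups overlapped. The largest promoter difference was -0.39 (SE 0.232) for PFF+Rab5 ASO vs PBS, where the normal scores did not overlap, and it did not pass the limma test (adjusted p = 0.405). No region of Camk1 was gained or lost.

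Camk1d encodes CaMKIδ and is the longest of the genes (chromosome 2, 5293457 to 5714515, minus strand). It had 97 of the 271 regions, 16 of them in all 12 libraries and 34 in 1 library. An intron at chr2:5370689-5370966 was the tallest of the gained or lost regions, and the intron at chr2:5318632-5318734 was called in the PFF libraries alone. Their sequences on the strand of the gene (GRCm38, RefSeq) follow, with the 21 bases at the median summit in capitals and with summits of single libraries spread over 64 and 53 bp.
Camk1d intron, 5370689: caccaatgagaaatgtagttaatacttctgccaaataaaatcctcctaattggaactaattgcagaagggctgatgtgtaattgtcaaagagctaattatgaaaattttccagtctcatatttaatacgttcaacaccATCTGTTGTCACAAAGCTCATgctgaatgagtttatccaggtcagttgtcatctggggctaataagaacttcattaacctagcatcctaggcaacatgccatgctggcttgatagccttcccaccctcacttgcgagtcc
Camk1d intron, 5318632: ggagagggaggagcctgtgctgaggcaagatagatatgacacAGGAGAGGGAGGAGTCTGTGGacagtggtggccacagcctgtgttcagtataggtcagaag

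The Camk1d intron at 5370689 had a percentile of 76.4, 78.5 and 61.1 with PFF+Rab5 ASO, from 20, 20 and 17 fragments, and 39.7 in PBS replicate 1. No PFF or PFF+MLi-2 library had a peak there, and it was gained in PFF+Rab5 ASO vs PFF. The intron at 5318632 had 21.5, 28.1 and 29.0 with PFF, from 12, 12 and 13 fragments, so that it was gained in PFF vs PBS and lost with each treatment. It was left in 2 PFF libraries with equally many top peaks taken from each library and in 1 with a −log10 q-value of at least 5. Of the other Camk1d regions that were gained or lost, the intron at 5458255 was called in 2 PBS, 3 PFF and 3 PFF+MLi-2 libraries and in 0 with PFF+Rab5 ASO. The intron at 5530084 was called in 1, 3, 0 and 3 libraries of PBS, PFF, PFF+MLi-2 and PFF+Rab5 ASO, and the one at 5422991 in 0, 1, 1 and 3. The highest Camk1d region, an intron at 5681346, had a mean percentile of 96.3. The leading promoter had 87.1, 88.0 and 84.6 in PBS and 83.1, 86.2 and 82.5 with PFF, and the groups overlapped.

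Camk1g encodes CaMKIγ, a membrane-anchored CaMKI that acts in dendrite growth. The gene is on chromosome 1 from 193346346 to 193370298, minus strand, with 7 regions, 5 of them in every library. The libraries had 6, 6 and 6 of these regions in PBS, 6, 5 and 6 with PFF, 6, 6 and 7 with PFF+MLi-2 and 5, 5 and 5 with PFF+Rab5 ASO. The share of all genes with counts lower in every PFF+Rab5 ASO library than in PBS was not counted. The Camk1g intron at chr1:193363920-193364128 was the second kinase gene region called in PFF+Rab5 ASO vs PFF, and its sequence is given on the strand of the gene, with the 21 bases at the median summit in capitals (summits of single libraries spread over 43 bp).
Camk1g intron, 193363920: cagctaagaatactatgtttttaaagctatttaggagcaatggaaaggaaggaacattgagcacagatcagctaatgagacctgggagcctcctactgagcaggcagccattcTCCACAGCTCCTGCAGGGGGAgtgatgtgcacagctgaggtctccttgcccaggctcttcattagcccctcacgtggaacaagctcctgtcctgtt

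This Camk1g intron had a percentile of 58.8, 45.7 and 61.5 in PBS, 35.8, 38.3 and 26.3 with PFF, 42.5, 11.5 and 44.0 with PFF+MLi-2 and 59.3, 59.6 and 71.5 with PFF+Rab5 ASO. The PFF values were below all PBS and all PFF+Rab5 ASO values. The height rank rose by 0.95 (SE 0.221) from PFF to PFF+Rab5 ASO (limma, adjusted p = 0.0464), and the difference of -0.71 (SE 0.213) between PFF and PBS did not pass (limma, adjusted p = 0.332). With 1 library left out the rise was 0.76 to 1.07, with adjusted p from 0.0812 to 0.129, and 0 of 6 fits passed. With the replicate number as a block it was 0.95 with an adjusted p of 0.0705. Ranking by summit pileup gave 0.46 with an adjusted p of 0.145, and -0.46 for PFF vs PBS (adjusted p = 0.337). An upstream region at 193379738, centred at -9545 bp from the start, had 6.64, 10.1 and 12.9 in PBS, 13.9 and 25.2 in PFF replicates 1 and 3, 27.1, 12.3 and 14.3 with PFF+MLi-2 and no peak with PFF+Rab5 ASO, so that it was lost in PFF+Rab5 ASO vs PBS.

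**Figure D5:**
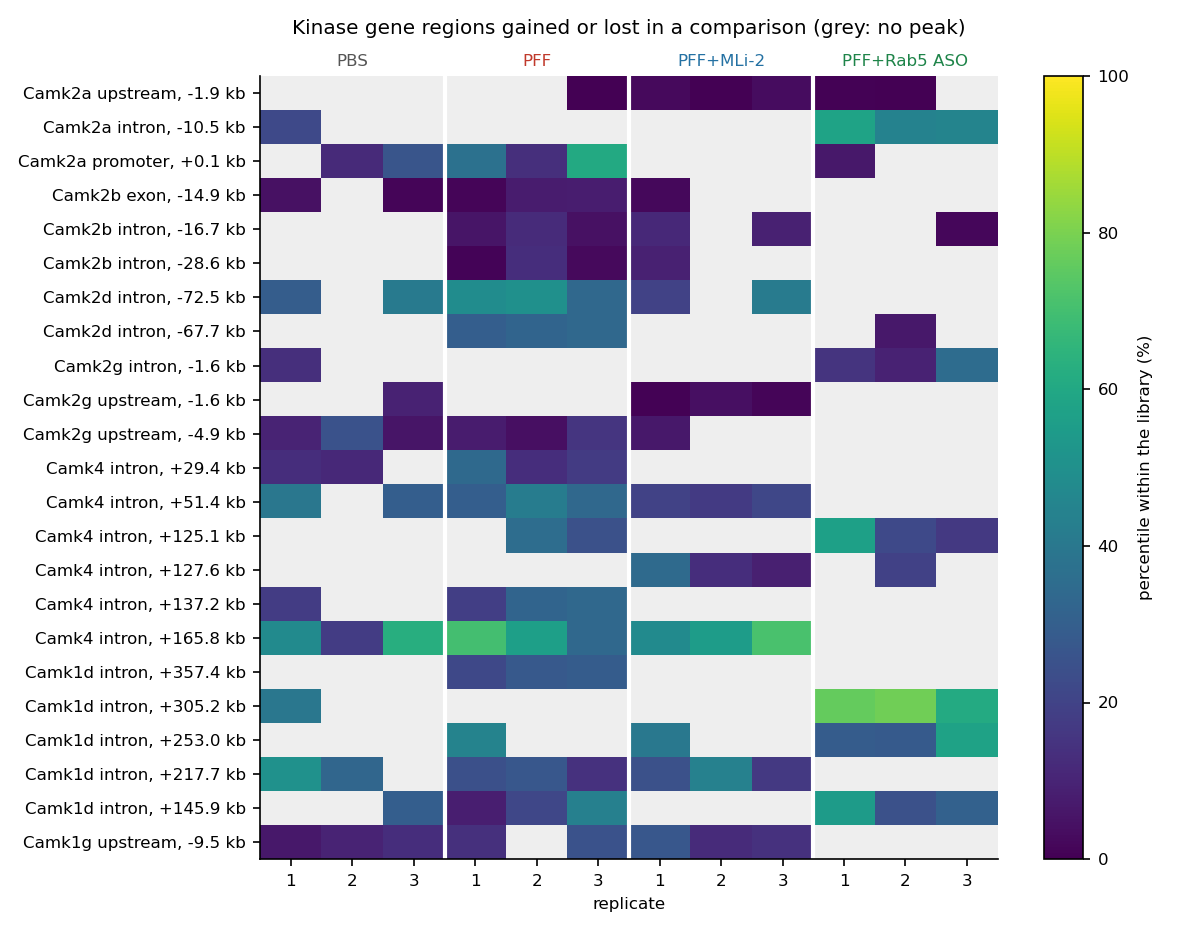
Percentile in every library (colour, percent; grey: no peak) of the 23 kinase gene regions gained or lost in a comparison, labelled by gene, class and distance of the region's centre from the nearest start site of the gene. Most filled cells are in the lower percentiles, and 12 regions are grey in all 3 PFF+Rab5 ASO libraries. Regions entered the figure by being gained or lost, so that such grey blocks follow from the choice.

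Over all 5 comparisons, 23 of the 271 kinase gene regions were gained or lost. The share of all regions was not counted for the 5 comparisons together. The 23 were 6 of 38 regions in Camk4, 5 of 97 in Camk1d, 3 of 18 in Camk2a, 3 of 28 in Camk2b, 3 of 24 in Camk2g, 2 of 34 in Camk2d and 1 of 7 in Camk1g. By position 17 were intronic, 4 upstream, 1 a promoter and 1 exonic, where the 271 regions had 202, 19, 35 and 15. Their peaks had a median percentile of 21.3 and a median pileup of 14.0 fragments, with 9 to 28 in all, against 71.1 and 28.0 for the 78 regions called in every library. The smallest pileup that was called in any library was 8 to 9 fragments, so that at the lower of these pileups a missing call does not show that a site was closed. The 23 regions made 32 calls over the 5 comparisons. With equally many top peaks taken from each library 9 of the 32 kept 3 libraries against 0, and with a −log10 q-value of at least 5 there were 3: the Camk2b intron at 6017108 in PFF vs PBS, and the Camk1d intron at 5370689 and the Camk2a intron at 60952968 in PFF+Rab5 ASO vs PFF.

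The rest of the pathway was read from the promoters of 26 genes, chosen with earlier results of these data known: the calmodulins, the calmodulin-binding buffers, kinase inhibitors and relatives, calcineurin and its regulators, kinase phosphatases and downstream factors. All 26 had a promoter region called in all 12 libraries, and 54 of their 86 promoter regions were tested. In PFF+Rab5 ASO vs PFF limma called 2 of 54 lower (3.70%, against 1.86% of all regions) and 0 higher (against 1.97%). In the other 4 comparisons it called 0 of 54, with 1 to 6 (1.85% to 11.1%) at an unadjusted p under 0.05, against 5.77% to 18.7% of all regions. One of the 2 was at an internal start site of Pcp4, which encodes a small protein that modulates calcium binding by calmodulin (chr16:96499016-96499363), with a mean percentile of 72.4 in PBS, 90.0 with PFF, 58.7 with PFF+MLi-2 and 58.3 with PFF+Rab5 ASO and a difference of -1.40 (SE 0.314; limma, adjusted p = 0.0436). The other was at an internal start site of Hdac4, a histone deacetylase that CaMK phosphorylation keeps out of the nucleus (chr1:92195793-92196165), with 85.0, 92.1, 82.2 and 77.2 in the same order and a difference of -0.93 (SE 0.190; limma, adjusted p = 0.0342). With replicate 1 of the PFF+Rab5 ASO group dropped, limma called 0 of all 72465 regions, so neither the Pcp4 nor the Hdac4 call held. Of the 86 promoter regions, 1 at a Calm2 start site (chr17:87447448-87447570) was lost with PFF+MLi-2 against both PFF and PBS. Of all regions, 1.64% and 0.577% were lost in these comparisons. Another 1 of the 86, at Pcp4 (chr16:96468217-96468342), was gained with PFF+Rab5 ASO against both, where 2.64% and 2.59% of all regions were gained.

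The kinase gene regions resembled the rest of the accessible genome in base composition, with a median GC content of 50.7% against 50.0% of all regions, and of 60.2% at their promoters and 49.2% in introns. Within 100 bp of the summit (201 bp in all), the CREB recognition sequence TGACGTCA was found in 2 of 271 regions (0.738%, against 0.408% of all regions), the E-box CACGTG in 12 (4.43%, against 3.51%) and the AP-1 sequence TGANTCA in 33 (12.2%, against 10.8%). Each of these sequences reads the same on both strands, and they do not overlap one another. The 2 regions with the CREB sequence were a Camk2d promoter (126596108) and a Camkk1 intron (73023117), both called in all 12 libraries. The Camk1g intron that rose with PFF+Rab5 ASO held CACGTG, whereas the Camk2b upstream region held none of the 3. Among the 23 gained or lost regions, 5 (21.7%) held the AP-1 sequence and 0 held either of the others. A match of letters is a description and does not show that a factor was bound.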

How the data were processed

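ATAC-seq was performed on 12 cultures of mouse cortical neurons. Groups were taken from the titles, treatment labels and series design, since the free text given for the MLi-2 and Rab5 ASO libraries has PBS where those have PFF. Per the study's methods, the authors checked reads with FastQC, removed adapters with Trim Galore 0.6.7, mapped to GRCm38 using Bowtie2 2.5.1 and called peaks in each library separately with MACS2 2.2.7.1. The MACS2 options, duplicate handling and any shift for Tn5 insertion are not given in the sources used here and would change the number, width and height of peaks. The deposited peak lists give the fold enrichment over local background (a ratio), the −log10 p-value, the −log10 q-value and the summit of each peak, as made by the authors. Read counts were not analysed here, so library totals are unknown. The deposited score was not used.

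Of 1916151 listed peaks, 1440 on other sequences than chromosomes 1 to 19, X and Y were left out. Peaks sharing 1 bp or more were merged and assigned to genes with GENCODE vM21. The pileup and background at a summit were recovered from the fold and the −log10 p-value, and the lowest common background divided by the smallest peak width gave the relative depth. Height was ranked within a library by fold enrichment, converted to normal scores and tested with limma 3.58.1 (lmFit and eBayes, 6 libraries per comparison, no covariate) in R 4.3.3, with Benjamini-Hochberg adjustment at 0.05 over all regions tested. The procedure was tested on simulated data. Other steps used Python 3.11.15, numpy 2.4.6, pandas 2.3.3, scipy 1.17.1, pysam 0.24.0 and matplotlib 3.10.9.

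The kinase genes and the pathway and marker lists were chosen with earlier results of these data known. Regions were named by rule: the highest promoter region of each gene, every gained or lost region (at most 6 per comparison and direction by percentile), every region with adjusted p under 0.05, and the 3 largest differences without overlap per comparison. Camk2b was described region by region, and other regions named, such as the highest of a gene and the Camk4 intron at 33165989, were chosen after their values were seen. The shares over protein-coding genes, with at least 4 or 20 regions or for leading promoters, were also added then. Alternatives were a replicate block, regions called in all 6 libraries of a comparison, a fit of all 12 libraries, ranks by −log10 q-value or by summit pileup, the top 137417 peaks of each library, a −log10 q-value of at least 5, merging within 100 bp, presence in at least 2 of 3 libraries, gene bodies alone, and leaving out each library. Ranking by summit pileup was chosen after seeing the data.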

Additional observations from a re-analysis of the deposited data

How the results depend on the processing

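Groups are named here as fibrils (PFF), inhibitor (PFF+MLi-2) and antisense (PFF+Rab5 ASO). The 0 kinase gene regions called by limma for fibrils against PBS, inhibitor against fibrils and inhibitor against PBS stayed at 0 under every alternative run, while over all regions the 0 for inhibitor against fibrils became 56 with all 12 libraries in 1 fit. The 2 called for antisense against fibrils became 1 with the replicate block (the Camk1g intron was lost, adjusted p = 0.0705), with regions called in all 6 libraries of the comparison, with all 12 libraries in 1 fit, with ranks by −log10 q-value and with gene bodies alone, 0 with ranks by summit pileup, and 0 to 1 with 1 library left out. Over all regions the 2772 calls became 1671 with the block, 2588 of 84857 with regions called in all 6 libraries and 2875 with all 12 libraries in 1 fit. They became 1897 by −log10 q-value, 2982 by summit pileup and 0 to 995 with 1 library left out. The 0 for antisense against PBS became 1 of 78 with all 12 libraries in 1 fit, where 1922 of all 72465 regions were called. It stayed at 0 with 1 library left out, where 0 to 35 of all regions were called. Each pregnancy was a replicate whose cultures were divided among groups, per the study's methods, but no source says that a replicate number marks the same pregnancy in each group. Correlations of same-numbered libraries were positive but weak, 0.01 to 0.08, and 5 of 6 libraries for fibrils against PBS and 6 of 6 elsewhere were closest to their own number, which is a hint of pairing from the data and not from the design. The block changed no other count of kinase gene regions called by limma. At an unadjusted limma p under 0.05 it gave 4 in place of 2 for inhibitor against PBS (4682 in place of 4179 over all regions). It gave 15 in place of 14 for antisense against fibrils (15386 in place of 15321) and 6 in place of 5 for antisense against PBS (13799 in place of 13527). Shares of all regions under the same alternative follow in brackets. Requiring a −log10 q-value of at least 5 lowered the gained regions from 4 to 1 (fibrils against PBS) [1.35%], from 2 to 1 (inhibitor against fibrils) [0.407%] and from 2 to 1 (inhibitor against PBS) [0.255%], and the lost regions from 6 to 0 of 167 (inhibitor against fibrils) [1.83%], from 10 to 3 of 173 (antisense against fibrils) [2.31%] and from 3 to 1 (antisense against PBS) [0.963%]. With an equal number of top peaks, inhibitor against fibrils had 1 gained [0.712%] and 0 lost [1.07%] regions and inhibitor against PBS had 0 gained [0.415%]. With presence in at least 2 of 3 libraries, the gained regions numbered 10 (fibrils against PBS) [4.32%], 6 (inhibitor against fibrils) [1.84%], 14 (antisense against fibrils) [6.62%], 5 (inhibitor against PBS) [1.57%] and 14 (antisense against PBS) [6.74%], and the lost regions 12 (inhibitor against fibrils) [6.06%], 3 (inhibitor against PBS) [3.67%] and 11 (antisense against PBS) [3.94%]. Gene bodies alone, which alters only the kinase gene regions and leaves the shares of all regions as they were, left 1 gained region for the inhibitor against fibrils [0.374%] and against PBS [0.225%] and 1 lost for antisense against PBS [0.991%]. With 1 library left out, gained and lost regions numbered 4 to 8 and 0 to 2 (fibrils against PBS) [up to 3.01% and 1.61%], 2 to 5 and 6 to 10 (inhibitor against fibrils) [up to 0.977% and 3.72%], 3 to 9 and 11 to 16 (antisense against fibrils) [up to 4.45% and 3.73%], 2 to 4 and 0 to 2 (inhibitor against PBS) [up to 1.12% and 2.37%], and 2 to 10 and 3 to 8 (antisense against PBS) [up to 5.27% and 2.72%], since fewer libraries make the condition easier to meet. The causes of the other changes were not tested. Of the 15 named differences in height rank, 2 were calls, and each was fitted under 12 alternatives: the Camk2b upstream region lost its call under 6 and the Camk1g intron under 11, all but an equal number of top peaks. The other 13 did not pass at first, and 1 of their 153 alternative fits passed. The sign reversed in 0 fits. These differences were chosen for groups without overlap, so that leaving out a library could not reverse the sign. The replicate block and the fit of all 12 libraries leave the difference itself unchanged. Ranks by summit pileup made 6 of 15 of these differences smaller by over 1.5 times and ranks by −log10 q-value made 1 of 15 smaller, and the other alternatives beside leaving out a library did so for 0. Gained and lost regions rest on 9 to 28 fragments at the summit, and a missing peak shows least at the lowest of these.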
